A study of Rattus norvegicus with 9 samples.

Results

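Striated muscle sarcomere genes were followed through prostates of 9 male Sprague Dawley rats on 1-colour Agilent arrays. The 40 members were chosen by symbol, as genes of the contractile apparatus of striated muscle and of its calcium and energy supply, and each was found on the array through the RefSeq accession of its probes. A matched probe was found for 34 members, among 15163 gene symbols on the array. Of these, 30 were measured, against 11791 of all symbols. Measured means that the scanner marked a probe as well above background on 3 or more of 9 arrays. No probe was matched for Mybpc2, Neb, Ttn, Tcap, Ldb3 and Ryr1, and Myh4, Myom2, Myot and Xirp2 were too dim. By role, 8 of 10 genes of the thick filament were measured, 8 of 9 of the thin filament, 4 of 10 of titin, M band and Z disc, 7 of 8 of excitation and calcium release, and 3 of 3 of energy supply and other roles.

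Each group was represented by 3 arrays. Sham rats had a sham operation and received corn oil and vehicle. BPH rats, the model of benign prostatic hyperplasia, were castrated and received dihydrotestosterone at 3 mg/kg daily for 4 weeks, and vehicle. BPH+ghrelin rats had the same castration and hormone, and by the methods ghrelin was given orally at 20 nmol/kg daily during the last 2 weeks, while a legend of the study gives another dose and an intraperitoneal route. Rats were 6 weeks old at purchase, 8 rats were kept per group, and which 3 were put on arrays is not stated. Replicates are separate samples by their labels. Castrated rats without dihydrotestosterone and sham rats with ghrelin were not analysed here, so that castration and hormone cannot be told apart.

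The sarcomere is the contractile unit of skeletal and cardiac muscle, in which thick filaments of myosin slide along thin filaments of actin when calcium binds troponin. Fast and slow fibres use different copies of many of these proteins, so that their transcripts mark the fibre type. The stroma of the prostate consists mainly of smooth muscle, which has no sarcomeres, while striated fibres belong to the sphincter around the urethra next to the gland. In bulk tissue, fewer cells of a type and less RNA per cell cannot be told apart.

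Quality of the arrays bears on the values below. The labelled tissue was reflected by Pbsn, the prostate gene of probasin, which was well above background on 9 of 9 arrays. Semg1, a gene of the seminal vesicle, was about as bright in sham, with 16.69, 16.07 and 16.69 against 16.16, 16.41 and 16.30 for Pbsn. The raw 75th percentile ranged from 327 on sham replicate 2 to 1065 on BPH replicate 1, and 61.4% of the probes were well above background on sham replicate 2, against 69.5% to 75% on the other arrays. Within every group, the values of 1 array were intermediate to both others at most of 20113 measured genes, namely those of sham replicate 3 at 73.0%, BPH replicate 2 at 71.0% and BPH+ghrelin replicate 2 at 68.8%, where arrays without order give 33.3%. Among the members, these arrays were intermediate at 76.7%, 56.7% and 73.3%. Whether the 3 arrays of a group are independent was not tested, and p-values below assume that they are.

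Promoters are shown for members that represent both patterns described below, 3 genes high on all sham arrays (Pvalb, Ckm, Mb) and 2 genes high on 2 of 3 sham arrays (Atp2a1, Actn3). Sequences are from RefSeq (assembly GRCr8), read 5′ to 3′ on the strand of the gene from 250 bases before to 50 bases after its start, and capitals mark E-boxes, the motif CANNTG that myogenic factors bind, which reads the same on both strands.
Pvalb promoter, chr7:111666240-111666539, minus strand: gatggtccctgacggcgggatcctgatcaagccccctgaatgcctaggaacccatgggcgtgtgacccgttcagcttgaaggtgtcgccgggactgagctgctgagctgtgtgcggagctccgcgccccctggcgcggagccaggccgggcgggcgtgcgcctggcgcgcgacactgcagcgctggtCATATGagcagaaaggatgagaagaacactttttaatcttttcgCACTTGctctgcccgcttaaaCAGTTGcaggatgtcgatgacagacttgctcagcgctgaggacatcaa
Ckm promoter, chr1:88189211-88189510, plus strand: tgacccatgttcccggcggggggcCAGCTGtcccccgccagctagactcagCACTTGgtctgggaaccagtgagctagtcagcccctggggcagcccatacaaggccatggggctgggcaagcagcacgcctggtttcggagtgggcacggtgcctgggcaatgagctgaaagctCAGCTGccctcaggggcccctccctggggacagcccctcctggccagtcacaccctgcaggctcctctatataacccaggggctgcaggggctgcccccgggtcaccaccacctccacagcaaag
Mb promoter, chr7:110647693-110647992, minus strand: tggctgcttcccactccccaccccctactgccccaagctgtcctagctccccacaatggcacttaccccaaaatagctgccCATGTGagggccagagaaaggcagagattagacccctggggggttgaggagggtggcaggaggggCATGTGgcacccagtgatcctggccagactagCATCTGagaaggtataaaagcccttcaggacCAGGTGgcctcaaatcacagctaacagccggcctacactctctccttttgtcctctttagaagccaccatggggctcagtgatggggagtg
Atp2a1 promoter, chr1:190475361-190475660, minus strand: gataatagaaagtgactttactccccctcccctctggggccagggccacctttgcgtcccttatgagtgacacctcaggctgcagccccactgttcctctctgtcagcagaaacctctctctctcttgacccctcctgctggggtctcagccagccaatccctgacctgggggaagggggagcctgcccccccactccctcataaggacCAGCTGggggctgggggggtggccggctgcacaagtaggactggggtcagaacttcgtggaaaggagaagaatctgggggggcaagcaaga
Actn3 promoter, chr1:211604352-211604651, minus strand: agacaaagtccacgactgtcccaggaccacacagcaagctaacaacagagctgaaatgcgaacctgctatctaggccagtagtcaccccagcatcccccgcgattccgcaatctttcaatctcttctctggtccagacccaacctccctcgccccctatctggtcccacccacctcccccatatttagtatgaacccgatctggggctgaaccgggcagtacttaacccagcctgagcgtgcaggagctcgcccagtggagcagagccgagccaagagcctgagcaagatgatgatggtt
These windows held 3 E-boxes in Pvalb, 3 in Ckm, 4 in Mb, 1 in Atp2a1 and 0 in Actn3. A promoter was matched for 32 members, and 28 of them (87.5%) had an E-box in at least 1 promoter, against 72.1% of all 33469 promoters. The MEF2 site, bound by another family of muscle factors, was present in 7 of the 32 members (21.9%), against 3.29% of all promoters. The CArG box, bound by serum response factor, was present in 4 members (12.5%), against 1.64%. Members were counted by gene over all their promoters, and the other shares by single promoter, so that the units differ. The 32 members include some that were not measured, such as Ttn and Myh4, which have a MEF2 site. Matches describe letters in this window and not binding.

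Among the members that passed the test, Asb11, Pvalb and Ckm differed most from sham. Asb11, the substrate receptor of a ubiquitin ligase in muscle, had log2 signals of 8.34, 8.93 and 8.48 in the sham replicates 1, 2 and 3. Its values were 5.18, 5.16 and 5.42 in BPH, and 5.22, 5.33 and 5.68 in BPH+ghrelin. Every sham array thus lay above every array of the other groups, without overlap. Asb11 was 10-fold lower in BPH than in sham (log2 difference -3.33, SE 0.19, adjusted p = 0.000395) and 9.00-fold lower in BPH+ghrelin than in sham (-3.17, SE 0.19, adjusted p = 0.000287).

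Pvalb encodes parvalbumin, a calcium buffer of fast fibres. Its log2 signals were 7.32, 7.40 and 7.32 in sham, 4.50, 4.29 and 4.31 in BPH, and 5.52, 5.20 and 4.81 in BPH+ghrelin. The 3 groups did not overlap, and BPH+ghrelin lay between sham and BPH. Pvalb was 7.91-fold lower in BPH than in sham (-2.98, SE 0.18, adjusted p = 0.000438) and 4.50-fold lower in BPH+ghrelin than in sham (-2.17, SE 0.18, adjusted p = 0.000737). The difference of BPH+ghrelin from BPH was 0.81 (SE 0.18), with an adjusted p of 0.0695.

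Ckm, the creatine kinase of muscle, had values of 7.19, 6.58 and 7.09 in sham, 4.96, 4.97 and 5.23 in BPH, and 4.70, 5.29 and 5.00 in BPH+ghrelin. Sham arrays again lay apart from all others. Ckm was 3.74-fold lower in BPH (-1.90, SE 0.21, adjusted p = 0.00451) and 3.89-fold lower in BPH+ghrelin (-1.96, SE 0.21, adjusted p = 0.00261), each against sham. For Mb, myoglobin, which stores oxygen in muscle, the sham values were 9.70, 9.53 and 9.50, while BPH arrays had 8.37, 8.57 and 8.96 and BPH+ghrelin arrays 8.42, 8.64 and 8.82. Mb was 1.92-fold lower in BPH (-0.94, SE 0.18, adjusted p = 0.0321) and 1.93-fold lower in BPH+ghrelin (-0.95, SE 0.18, adjusted p = 0.0241) than in sham.

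In the thin filament, Tnni2, the troponin I of fast fibres, was lower than in sham in both groups. Its values were 8.27, 7.99 and 8.16 in sham, 6.70, 6.70 and 6.91 in BPH, and 7.03, 7.36 and 7.66 in BPH+ghrelin. The 3 groups did not overlap. Tnni2 was 2.59-fold lower in BPH (-1.37, SE 0.18, adjusted p = 0.00785) and 1.73-fold lower in BPH+ghrelin (-0.79, SE 0.18, adjusted p = 0.0390). Cacna1s, the voltage sensor of the transverse tubules, had 4.74, 4.41 and 4.34 in sham, 3.00, 3.04 and 3.16 in BPH, and 2.68, 3.72 and 3.69 in BPH+ghrelin. It was 2.69-fold lower in BPH (-1.43, SE 0.27, adjusted p = 0.0321) and 2.19-fold lower in BPH+ghrelin (-1.13, SE 0.27, adjusted p = 0.0490), with BPH+ghrelin replicate 1 below every other array.

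**Figure D1:**
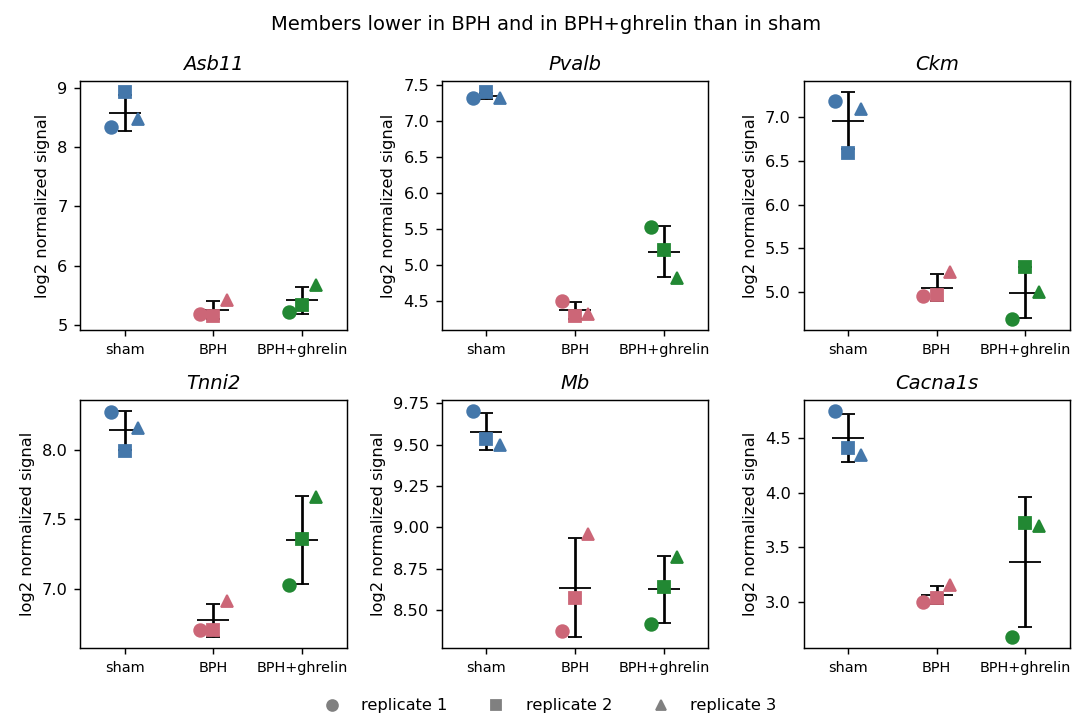
Log2 normalized signal of Asb11, Pvalb, Ckm, Tnni2, Mb and Cacna1s on each of the 9 arrays. Symbols stand for single arrays, and bars for the mean ± SD of 3 arrays per group. All 3 sham arrays lie above all 6 other arrays in each panel, for example 8.34 to 8.93 against 5.16 to 5.68 for Asb11.

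Across all members, 29 could be tested in BPH against sham, and 6 were lower (Asb11, Pvalb, Ckm, Cacna1s, Tnni2 and Mb) and 1 was higher. The share called was 24.1% of the members tested, while 4.34% of 19552 genes were called. Lower calls made up 20.7% of the members and 2.18% of all genes, and 2.16% of all genes were called higher. The member that was higher was Myom1, a protein that links myosin filaments at the M band, with 4.85, 5.06 and 5.05 in sham and 5.49, 5.49 and 5.54 in BPH (0.52, SE 0.12, adjusted p = 0.0473). The groups did not overlap in 10 members that were lower in each BPH array, or 34.5%, and in 4 members that were higher in each BPH array, or 13.8%, while 14.2% and 17.1% of all genes separated in this way. Both directions together made up 48.3% of the members and 31.3% of all genes. Differences of at least 2-fold were found in 8 members below sham (27.6%) and 1 above it, against 4.63% and 3.53% of all genes. The member above is Myh7, which was at background on all sham arrays, so that its fitted fold is not a bound, and it is also among the 4 members without overlap. The median difference of the members was -0.45, and that of all genes was 0.04. The members' median was -0.93 without sham replicate 2, -0.31 without sham replicate 3, -0.29 without sham replicate 1, -0.20 without BPH replicate 1, -0.70 without BPH replicate 3, -0.22 with normexp background correction and -0.72 with 75th percentile scaling. By an unadjusted p under 0.05, 15 members would have been called, where the share of all genes was 26.5%. At 3 against 3 arrays, the smallest two-sided p of an exact permutation test is 0.1.

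Calls in BPH against sham depended on single arrays for all but the largest differences. Asb11, Pvalb and Ckm were called whichever of the 6 arrays was left out. Tnni2 lost the call without BPH replicate 2 (adjusted p = 0.0576), while Mb lost it when sham replicate 3 (adjusted p = 0.103), BPH replicate 1 (0.0665) or BPH replicate 2 (0.151) was omitted. For Cacna1s, the adjusted p was 0.0986 once sham replicate 3 was left out, and 0.0713, 0.141 and 0.0849 for the BPH replicates 1, 2 and 3. For Myom1, the same 4 fits gave 0.138, 0.0845, 0.188 and 0.118. Omitting BPH replicate 2 left 3 members called and omitting sham replicate 3 left 4, whereas 13 were called when sham replicate 2 was omitted. With normexp background correction, which compresses dim signals, the differences were -1.97 for Asb11, -1.37 for Pvalb, -0.87 for Ckm, -0.92 for Tnni2 and -0.80 for Mb, all still called, whereas Cacna1s (-0.23) and Myom1 (0.18) lost the call. With 2 arrays per group, after the intermediate array was dropped from each, 3 genes in all and 0 members were called, although the differences of Asb11, Pvalb and Ckm were then -3.33, -2.96 and -1.79. Arrays whose file headers share a scan date were taken as being on the same slide. By this reading, no slide held both sham and BPH arrays, and 0 members were called with the slide as a fixed term. In that fit, the differences were -3.10 for Asb11, -3.51 for Pvalb, -1.39 for Ckm, -0.88 for Tnni2, -0.67 for Mb and -0.48 for Cacna1s, and the lowest adjusted p of these was 0.119.

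In BPH+ghrelin against sham, 26 members were tested, and the same 6 members were lower and 0 were higher. This was 23.1% of the members, while 6.29% of 19197 genes were called, 3.3% lower and 2.99% higher. Myom1 differed by 0.36 (SE 0.12, adjusted p = 0.109). Sham arrays are shared by both comparisons, so that they are not independent of each other. The median difference was -0.53 for the members (-0.18 with normexp background correction) and 0.04 for all genes. BPH+ghrelin arrays lay below all sham arrays in 10 members (38.5%) and above them in 3 (11.5%), against 12.8% and 17.5% of all genes, or 50% and 30.4% in both directions. Differences of at least 2-fold were found in 7 members below sham (26.9%) and 1 above it, against 4.2% and 3.21% of all genes. At an unadjusted p under 0.05, 12 members passed, and 23.7% of all genes. Sham replicates 1 and 2 and BPH+ghrelin replicates 2 and 3 were on the same slide, and within that slide the differences were -3.13 for Asb11, -2.35 for Pvalb, -1.74 for Ckm, -0.89 for Mb, -0.87 for Cacna1s and -0.62 for Tnni2. With the slide as a fixed term, 2 members were called, Asb11 and Pvalb (adjusted p = 0.0221 for each). With the intermediate array of each group dropped, 2 genes in all and 0 members were called. Asb11, Pvalb and Ckm kept their calls whichever array was left out. Mb lost its call when sham replicate 3 (adjusted p = 0.0844) or the BPH+ghrelin replicates 1 (0.0792) or 2 (0.103) were omitted, each of which left 3 members called. Tnni2 lost it in the same fits (0.134, 0.0996 and 0.140) and when sham replicate 1 was omitted (0.0645). Cacna1s lost it in each of 6 fits (adjusted p from 0.0572 to 0.124). Omitting sham replicate 2 gave 10 members called. With normexp, the differences were -1.91 for Asb11, -1.13 for Pvalb, -0.91 for Ckm, -0.81 for Mb and -0.54 for Tnni2, all still called, and Cacna1s (-0.20) lost the call.

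**Figure D2:**
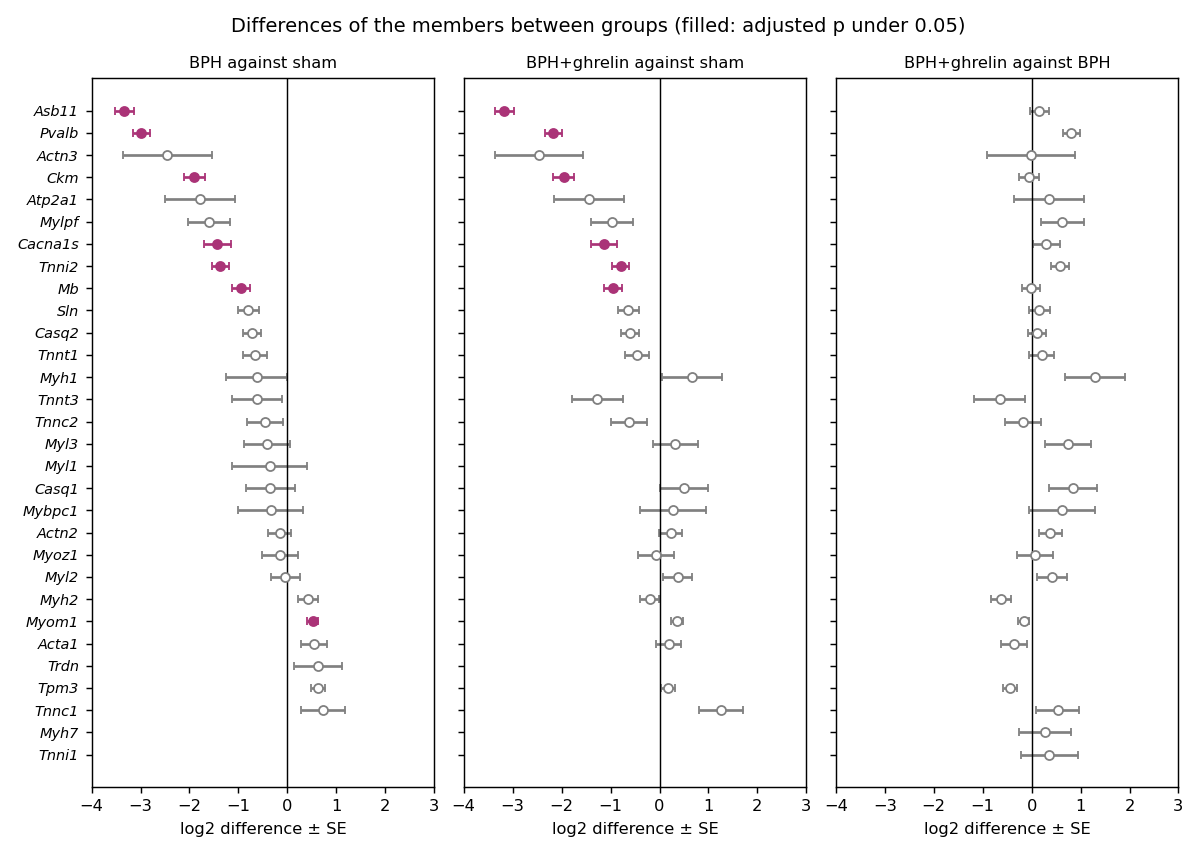
Log2 differences (± SE of the limma fit) of the members in the 3 comparisons, in the order of BPH against sham. Filled symbols have an adjusted p under 0.05, and members at background on all arrays of a group are not drawn. Asb11, Pvalb and Ckm lie farthest left among the filled symbols in both comparisons with sham, and BPH+ghrelin against BPH has no filled symbol.

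BPH+ghrelin against BPH addresses the question of the study, an effect of ghrelin in this model. None of 28 members tested was called by limma, while 4 had an unadjusted p under 0.05, and 1.48% of 19749 genes were called (21.1% at an unadjusted p under 0.05). The median difference was 0.24 for the members and 0.02 for all genes, and that of the members was 0.05 with normexp background correction and 0.13 without BPH replicate 1. No overlap was found in 32.1% of the members and in 39.2% of all genes, with 4 members below BPH and 5 above it, where 19.3% and 19.8% of all genes lay. A difference of at least 2-fold was found in 0 members below and 1 above, against 3.21% and 2.9% of all genes. By an adjusted p under 0.05, 0.987% of all genes were lower and 0.496% higher. Among the members tested, Myh1, the myosin heavy chain of fast 2X fibres, had the largest difference (1.29, SE 0.62, adjusted p = 0.272). Its values were 4.47, 5.32 and 6.19 in BPH and 7.32, 6.79 and 5.75 in BPH+ghrelin. These values overlapped, and in sham they were 6.68, 4.88 and 6.29. Casq1, the calcium store protein of fast fibres, differed by 0.84 (SE 0.50, adjusted p = 0.359), and Myl3, the essential light chain of slow and ventricular muscle, by 0.74 (SE 0.46, adjusted p = 0.387). Single arrays moved these values, as Myl3 differed by 0.18 without BPH+ghrelin replicate 1, and without BPH replicate 1 the differences of Casq1 and Myh1 were 0.54 and 0.86. Tnnt3, the troponin T of fast fibres, differed by -0.65 (SE 0.52, adjusted p = 0.495), and Mylpf, the regulatory light chain of fast fibres, by 0.63 (SE 0.43, adjusted p = 0.429). BPH+ghrelin replicate 1 was on the same slide as the 3 BPH arrays, and within this slide its differences were 2.00 for Myh1, 1.16 for Pvalb and -0.03 for Asb11. With normalization and fit of only the 6 arrays compared, 2 of 28 members were called, and 2110 of 19749 genes.

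The sham arrays were not alike in other members. Actn3, the α-actinin of the Z disc in fast fibres, had 7.58 and 6.91 in the sham replicates 1 and 3, but 3.57 in sham replicate 2, where it was not well above background. Its values were 3.70, 3.11 and 3.89 in BPH and 3.55, 3.15 and 3.94 in BPH+ghrelin. Thus 2 sham arrays stood far above the others, and the third resembled the arrays of the other groups. The signal in the lower of the sham replicates 1 and 3 was at least 9.93-fold higher than in sham replicate 2. Atp2a1, the calcium pump of the sarcoplasmic reticulum in fast fibres, had 7.36, 4.20 and 7.07 in sham, 4.53, 4.49 and 4.24 in BPH, and 4.91, 4.78 and 4.63 in BPH+ghrelin, and the lower of the sham replicates 1 and 3 was 7.31-fold above sham replicate 2.

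Some further members, mostly of fast fibres, showed the same order among the sham arrays, whereas the fast members Tnnc2 (10.96, 11.42 and 11.07), Myh2 and Pvalb were highest on sham replicate 2. Mylpf had 6.19, 4.24 and 5.77 in sham, 3.88, 3.92 and 3.60 in BPH, and 4.50, 4.46 and 4.33 in BPH+ghrelin. Tnnt3 had 5.86, 3.60 and 5.64 in sham, 4.31, 4.36 and 4.57 in BPH, and 3.82, 3.65 and 3.83 in BPH+ghrelin. For Mylpf, sham replicate 2 stood above the BPH arrays but below the BPH+ghrelin arrays, and for Tnnt3 it was below all others and not well above background. Myl1, the essential light chain of fast fibres, had 4.03, 0.69 and 3.67 in sham and was well above background on 2 sham arrays, 1 BPH array and 0 BPH+ghrelin arrays. No fold is given for its group means, as sham replicate 2 was at background as well. Mybpc1, a myosin-binding protein of slow fibres, had 4.96, 2.94 and 4.81 in sham, while Casq1 had 6.64, 4.66 and 6.18, and Myoz1, a Z disc protein that binds calcineurin, had 5.44, 3.98 and 5.28.

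Together, sham replicates 1 and 3 were each at least 2-fold above sham replicate 2 in 9 of 30 members by their measured signals (Actn3, Myl1, Atp2a1, Tnnt3, Mybpc1, Mylpf, Casq1, Myh1 and Myoz1), or 30.0%, and in 7.36% of all genes measured. Against the background limit of sham replicate 2, where Myl1 was not well above background, its ratio is only bounded as at least 1.06-fold. All 3 sham arrays were above all 6 other arrays in 9 other members (Asb11, Pvalb, Ckm, Mb, Tnni2, Cacna1s, Casq2, Sln and Tnnt1), or again 30.0%, and in 5.55% of all genes. These counts describe the arrays, with no test. The fast troponin I gene Tnni2 and the fast troponin T gene Tnnt3 belonged to different patterns. None of the 9 split members was called against sham, and the adjusted p was 0.142 for Actn3 (-2.45, SE 0.90), 0.163 for Atp2a1 (-1.79, SE 0.72) and 0.0745 for Mylpf (-1.60, SE 0.43) in BPH. Without sham replicate 2, these values were 0.00259, 0.00115 and 0.00152, and the differences were -3.68, -2.80 and -2.18. These members were picked for a low value on sham replicate 2, so that the smaller p-values restate that choice and are no further support. In BPH+ghrelin against sham, Actn3 differed by -2.47 (adjusted p = 0.142), Atp2a1 by -1.44 (0.266), Tnnt3 by -1.27 (0.183) and Mylpf by -0.97 (0.218), and without sham replicate 2 the adjusted p of these 4 was 0.00182, 0.000684, 0.000724 and 0.00365.

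**Figure D3:**
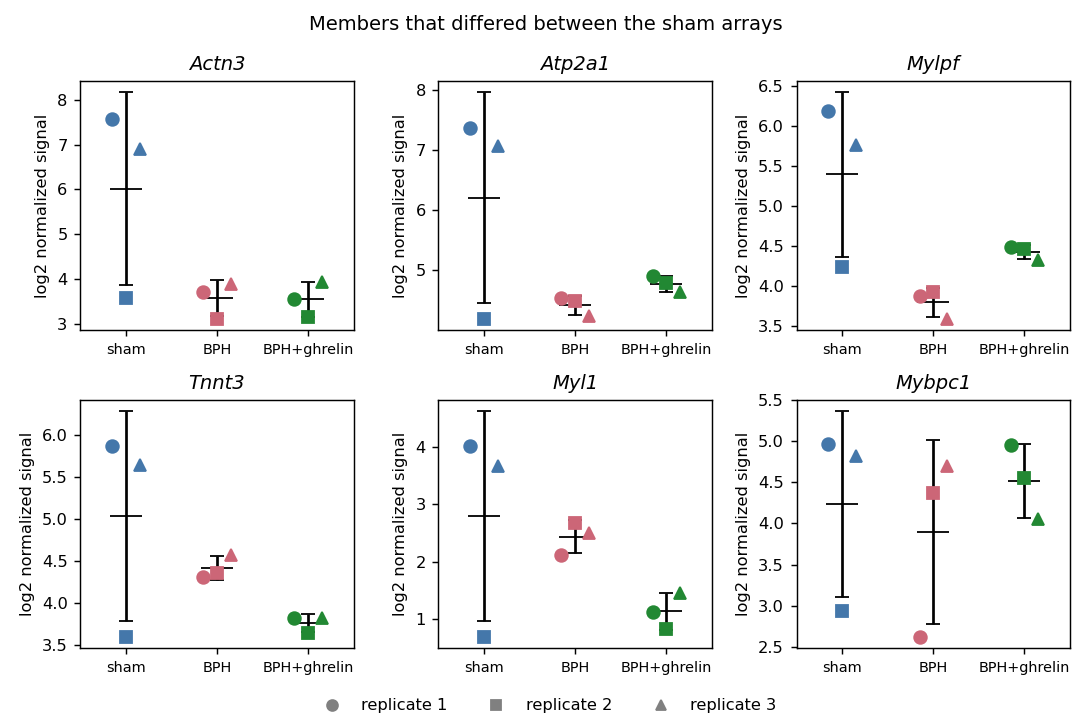
Log2 normalized signal of Actn3, Atp2a1, Mylpf, Tnnt3, Myl1 and Mybpc1 on each of the 9 arrays, with the mean ± SD of 3 arrays per group. Sham replicates 1 and 3 lie above sham replicate 2 in every panel, for Actn3 at 7.58 and 6.91 against 3.57.

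Levels of other cell types also varied among the sham arrays. Adipoq, the adipocyte hormone adiponectin, had 3.28, 12.03 and 10.48 in the sham replicates 1, 2 and 3. The median deviation of 7 measured fat genes from their means was -1.90, 1.04 and -0.15 on these arrays, 0.18 to 1.29 in BPH and -2.17 to 1.05 in BPH+ghrelin, and their summed linear signal ranged from 875 to 10357 in sham. Lep was well above background on 0 arrays. Smooth muscle genes had median deviations of 0.40, -0.33 and 0.11 on the sham replicates 1, 2 and 3. Cnn1, the calponin of smooth muscle, had 7.30, 5.67 and 6.93. By the median of the fat genes, sham replicate 1 was lowest among the sham arrays and sham replicate 2 within the range of the BPH arrays, while the summed fat signal of sham replicate 2 (10357) lay above that of the BPH arrays (3267 to 6883). The lowest log2 signal of a probe well above background was 3.60 on sham replicate 2 and 2.39 to 2.97 on the others. The part of fat, smooth muscle or background in the split was not tested.

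The members below were not called in any comparison. In excitation and calcium handling, Casq2, the calcium store protein of slow and cardiac muscle, had 7.98, 8.69 and 8.35 in sham and 7.54 to 7.82 on the 6 other arrays (-0.72, SE 0.18, adjusted p = 0.0635 in BPH; -0.60, SE 0.18, adjusted p = 0.0898 in BPH+ghrelin). Sln, sarcolipin, a regulator of the calcium pump, differed by -0.80 (SE 0.22, adjusted p = 0.0757) in BPH and by -0.64 (SE 0.22, adjusted p = 0.121) in BPH+ghrelin. Trdn, triadin, which anchors calsequestrin, was well above background on 1 sham array, 2 BPH arrays and 0 BPH+ghrelin arrays, so that no fold is given. A second probe of Trdn was above background on 0 arrays.

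In the thin filament, Acta1, skeletal α-actin, had 7.56, 7.32 and 7.45 in sham, 7.35, 8.08 and 8.53 in BPH, and 7.67, 7.62 and 7.60 in BPH+ghrelin, so that the BPH arrays spread over the range of both other groups. Tpm3, a tropomyosin that is also made in cells without sarcomeres, had 11.19, 10.85 and 11.06 in sham, 11.71, 11.61 and 11.65 in BPH, and 11.42, 11.16 and 11.05 in BPH+ghrelin. Its difference of BPH from sham was 0.62 (SE 0.14), with no overlap and an adjusted p of 0.0530, and a second, dimmer probe gave 0.39. Tnnc1, the troponin C of slow and cardiac muscle, had 6.40, 7.16 and 6.51 in sham, 6.37, 7.54 and 8.33 in BPH, and 8.13, 7.93 and 7.77 in BPH+ghrelin. BPH+ghrelin lay above sham without overlap (1.25, SE 0.45, adjusted p = 0.135). Tnnt1, the troponin T of slow fibres, differed from sham by -0.66 (SE 0.25, adjusted p = 0.149) in BPH, and Tnnc2, the troponin C of fast fibres, by -0.45 (SE 0.37, adjusted p = 0.443).

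In the thick filament, 0 of 8 genes tested were called in BPH against sham, where 4.34% of all genes were, and 8 genes are too few to set these shares apart. Myh2, the heavy chain of 2A fibres, had 5.11, 5.37 and 5.05 in sham, 5.51, 5.55 and 5.74 in BPH, and 4.64, 4.88 and 5.40 in BPH+ghrelin. Its difference was 0.42 (adjusted p = 0.223) in BPH against sham and -0.63 (adjusted p = 0.146) in BPH+ghrelin against BPH. Myh7, the heavy chain of slow and ventricular muscle, was not well above background on any of 3 sham arrays, while its values were 2.83, 2.48 and 2.94 in BPH and 4.16, 2.94 and 1.96 in BPH+ghrelin. These group means lay under the mean background limit of the 3 sham arrays, so that no fold is given. Tnni1, the troponin I of slow fibres, was likewise at background in sham and above it on 1 BPH array and 2 BPH+ghrelin arrays. Myl2, the regulatory light chain of slow muscle, differed by -0.04 (SE 0.30), and Actn2, α-actinin 2 of the Z disc, by -0.16 (SE 0.24) in BPH against sham.

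**Figure D4:**
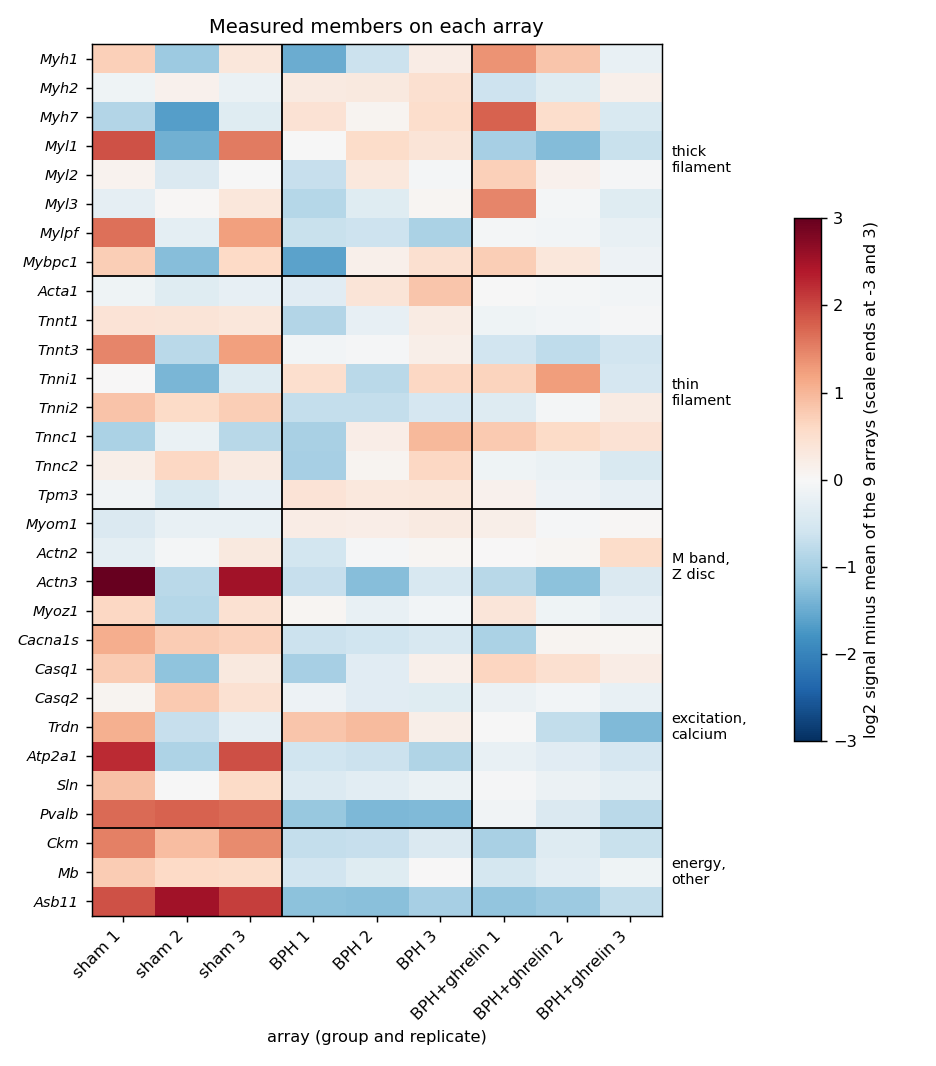
Log2 signal of each of the 30 measured members on each of the 9 arrays, minus its mean over the arrays, ordered by role. Red is above and blue below the mean, with colours ending at -3 and 3. Asb11, Pvalb and Ckm are red on 3 sham arrays, while Actn3 and Atp2a1 are red only on sham replicates 1 and 3.

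Fast and slow fibre genes were set side by side per array. Of 12 fast members, 10 were measured, and their median deviation was 1.15, -0.56 and 0.98 on the sham replicates 1, 2 and 3, -0.70, -0.63 and -0.17 in BPH, and -0.18, -0.28 and -0.33 in BPH+ghrelin. For 7 slow members it was 0.02, -0.19 and -0.01 in sham, -0.70, -0.24 and 0.26 in BPH, and 0.71, 0.12 and -0.23 in BPH+ghrelin. By this median, sham replicates 1 and 3 stood out for fast genes. Myl1, of fast fibres, and Mybpc1, of slow fibres, were in neither list. In sham, Myl1 had 4.03, 0.69 and 3.67 and Mybpc1 had 4.96, 2.94 and 4.81, both lowest on sham replicate 2. The summed linear signal of the fast members was 3180, 3317 and 3134 on the sham arrays. Most of this sum is Tnnc2, the brightest fast member (10.96, 11.42 and 11.07), so that it says little about the other fast members. Tnnc2, Myh2 and Pvalb were highest on sham replicate 2. In BPH against sham, 2 of 10 fast members tested were lower (Pvalb and Tnni2) and 0 of 6 slow members were called, where 2.18% of all genes were lower, and the difference between both lists was not tested. Over all 30 members, the median deviation was 0.73, -0.26 and 0.39 in sham, -0.62, -0.28 and 0.11 in BPH, and -0.04, -0.08 and -0.24 in BPH+ghrelin. The median range over the arrays of a group was 0.66 at members and 0.61 at all genes in sham, 0.51 and 0.33 in BPH, and 0.57 and 0.33 in BPH+ghrelin. With normexp, the range at members was 0.10 in BPH and 0.16 in BPH+ghrelin, and whether it then exceeded that of all genes was not tested.

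**Figure D5:**
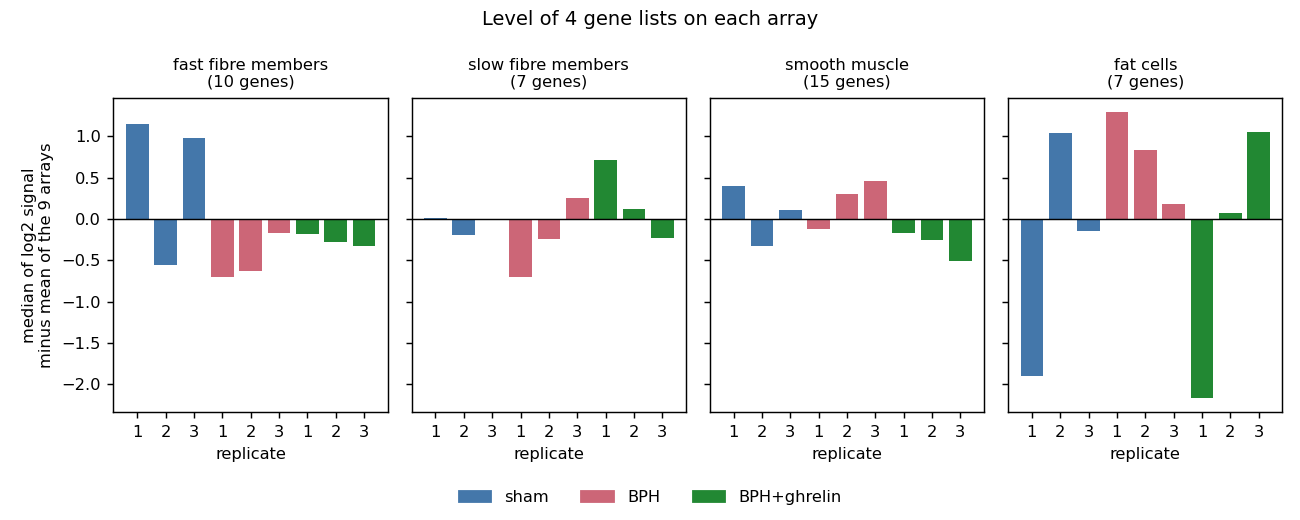
Median deviation of 4 gene lists on each array, as log2 signal of each gene minus its mean over the 9 arrays. Fast fibre members reach 1.15 and 0.98 on sham replicates 1 and 3 and lie between -0.70 and -0.17 on the BPH and BPH+ghrelin arrays, while fat cell genes are at -1.90 on sham replicate 1 and at 1.04 on sham replicate 2.

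Of 50 other genes of striated muscle, 27 were tested in BPH against sham, and 3 were lower and 0 higher, while 2.18% of all genes were lower and 2.16% higher. Trim63, a ubiquitin ligase that acts on sarcomere proteins, had 6.53, 7.33 and 6.75 in sham, 3.45, 3.04 and 0.99 in BPH, and 0.79, 0.87 and 1.73 in BPH+ghrelin. It was lower in BPH than in sham (-4.37, SE 0.60, adjusted p = 0.0104), and 2 of 3 BPH arrays had it above background. It was not well above background on any BPH+ghrelin array, and its mean was at least 17.9-fold lower there than in sham. It entered that comparison only through the sham arrays, so that its call there is a description. With normexp background correction, its difference from sham was -1.13 in BPH and -1.22 in BPH+ghrelin. Eno3, the enolase of muscle, and Ampd1, the AMP deaminase of muscle, were lower in BPH (-0.94, adjusted p = 0.0146, and -0.82, adjusted p = 0.0328), but both lost the call when BPH replicate 2 (0.0980 and 0.131) or sham replicate 3 (0.0654 and 0.124) was omitted, and Ampd1 also when the BPH replicates 1 (0.0678) or 3 (0.0694) were. In BPH+ghrelin against sham, 3 of 27 were lower (Trim63, Nrap and Cacnb1) and 1 was higher (Trim54), against 3.3% and 2.99% of all genes, and omitting sham replicate 3 or any BPH+ghrelin array left 1 gene called, Trim63, which had passed the filter only through sham. In BPH+ghrelin against BPH, 0 of 26 were called by limma and 7 had an unadjusted p under 0.05, where 21.1% of all genes did. Abra, an actin-binding activator of transcription that the study selected, had 4.00, 7.26 and 5.72 in sham, 4.08, 4.53 and 4.93 in BPH, and 5.59, 5.53 and 5.52 in BPH+ghrelin. BPH+ghrelin did not overlap with BPH (1.03, SE 0.69, adjusted p = 0.416), and sham replicate 2 was the highest of all arrays.

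Cells that could carry members were checked by further lists. Of genes of muscle stem cells and the neuromuscular junction, 0 of 9 were called in BPH against sham (4.34% of all genes). In 4 of 9, every BPH array lay below every sham array, as in 14.2% of all genes, and the median difference was -0.41. These 9 genes are too few to set such shares apart. Pax7, Myod1 and Myf6 were well above background on 0 arrays, while Myog and Myf5 were above it on 9. Among heart markers, Nppa and Tnni3 were above background on 0 arrays, and Ryr2, the calcium release channel of heart, was lower in BPH (-0.83, adjusted p = 0.0249) and in BPH+ghrelin (-0.86, adjusted p = 0.0170) than in sham. Myl4, the atrial light chain, was higher in BPH+ghrelin than in BPH (0.78, adjusted p = 0.0427). Myh6, the atrial heavy chain, had 4.14, 4.51 and 4.51 in BPH and 6.90, 6.20 and 4.38 in BPH+ghrelin (1.44, adjusted p = 0.191). Smooth muscle had 0 of 15 genes called in BPH against sham (4.34% of all genes). Between BPH+ghrelin and BPH, 2 of 15 were lower with ghrelin (0.987% of all genes), Myh11 (-0.96, adjusted p = 0.0157) and Cald1 (-1.16, adjusted p = 0.0292). Compared with sham, 3 of 15 were lower in BPH+ghrelin (3.3% of all genes), Myh11, Cald1 and Tpm2. Seminal vesicle and coagulating gland genes had median deviations of 2.53 to 3.84 in sham, -2.31 to -0.04 in BPH and -2.89 to -0.91 in BPH+ghrelin. Of 6 tested, 3 were lower in BPH than in sham (Svs3a, Svs3b and Svs4), where 2.18% of all genes were. Svs3b was well above background on only 4 of 9 arrays. Semg1 was not called, with 16.69, 16.07 and 16.69 in sham and 14.53, 13.63 and 7.35 in BPH. The differences of Svs5 (0.26, adjusted p = 0.721) and Svs6 (1.27, adjusted p = 0.338) had the other sign. In BPH+ghrelin, 4 of 6 were lower than in sham (Semg1, Svs3a, Svs3b and Svs4), where 3.3% of all genes were. Svs3b passed the filter there only through sham. In the prostate epithelium, Pbsn was lower in BPH than in sham (-2.65, adjusted p = 0.00191), and Krt8, a keratin of luminal cells, was higher (0.96, adjusted p = 0.00909). The part of these cells in the differences of the members was not tested.

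Finally, genes outside the lists were ranked by how close their profile over 9 arrays lay to the median profile of the members. Among 1787 candidates that spanned at least 2 on the log2 scale, the 10 closest were H19, Itpka, Mpdz, Zbed3, Nadk2, Tle2, Amigo2, Adgrg1, Irf8 and Fstl4, with root mean square distances of 0.36 to 0.47. H19, a long noncoding RNA from an imprinted locus, had 5.73, 3.66 and 4.92 in sham, 4.05, 4.42 and 5.11 in BPH, and 4.36, 4.01 and 3.97 in BPH+ghrelin. Its highest and lowest arrays within each group were those of the members' median profile, which is how it was selected.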

How the data were processed

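Arrays of 9 rat prostates were used, 3 per group. The authors deposited scanner intensity values on a linear scale, background-subtracted and not normalized between arrays, and a matrix of quantile normalized log2 values, which served as an alternative. With 44254 spots per array, outlier spots were removed, spots of a probe averaged, and log2 signals of 30356 probes quantile normalized. Accessions were matched to RefSeq genes (GRCr8, names only), which named 59.3% of the probes. A gene was tested with its brightest probe if the scanner marked it well above background on 3 or more of 6 arrays compared. Comparisons used limma 3.58.1 (R 4.3.3; lmFit and eBayes, 9 arrays in 1 fit) with Benjamini-Hochberg adjustment over all genes tested. A gene with an adjusted p under 0.05 was called. The procedure was tested on simulated data. A list level is the median of its genes' deviations from their 9-array means. Named were all members called, otherwise up to 6 with the largest difference, and the 10 closest profiles. The members and lists were chosen with earlier results of these data known. Alternatives covered scaling, background correction (normexp, offset 50), filters, probes, arrays, slide, replicate number and single arrays left out, and dropping the in-between arrays was added after the data were seen. The number of arrays limits the precision. One gene of the prostate epithelium list is not reported here.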

Additional observations from a re-analysis of the deposited data

How the results depend on the processing

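The direction of the 6 lower members was the same under all alternatives run. Counts of calls were less stable, and the cause was not tested. In BPH against sham, 849 of all genes, 7 members and 3 other striated muscle genes were called. All genes numbered 533 without a filter, 180 with only the 6 arrays compared, 2 with slide as a fixed term, 7084 with slide as a random block and 3 with the in-between arrays dropped. Members numbered 0 (slide fixed), 16 (slide random), 0 (in-between arrays dropped) and 15 (unadjusted p), and other striated muscle genes 5 (75th percentile scaling), 0 (6 arrays), 0 (slide fixed), 10 (slide random) and 0 (in-between arrays dropped). In BPH+ghrelin against BPH, 293 of all genes were called, and 517 (75th percentile), 188 (no filter), 2110 (6 arrays), 2 (slide fixed), 1833 (slide random) and 0 (in-between arrays dropped) under the alternatives. Instead of 0 members, 2 (6 arrays), 3 (slide random), 4 (unadjusted p) and 1 (2-fold without test) were found, and instead of 0 other striated muscle genes 2 (75th percentile), 1 (deposited matrix), 4 (6 arrays) and 5 (slide random). In BPH+ghrelin against sham, 1207 of all genes were called, and 85 (slide fixed) and 2 (in-between arrays dropped). Instead of 6 members there were 2 (slide fixed), 0 (in-between arrays dropped) and 12 (unadjusted p), and instead of 4 other striated muscle genes 2 (filter on all 6 arrays), 2 (6 arrays), 0 (slide fixed) and 0 (in-between arrays dropped). With slide as a random block the estimated correlation was -0.21 in BPH against sham and BPH+ghrelin against BPH, and -0.22 in BPH+ghrelin against sham.

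With the replicate number as a block, 242, 20 and 462 of all genes were called in BPH against sham, BPH+ghrelin against BPH and BPH+ghrelin against sham. The block left 4 members and 1 other striated muscle gene in BPH against sham, and 3 members and 1 such gene in BPH+ghrelin against sham. Arrays of the same number had correlations of -0.13 to 0.25, and so few arrays cannot settle whether numbers pair the samples.

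Leaving out 1 array in turn gave 119 to 3069 genes, 3 to 13 members, 1 to 6 other striated muscle genes and a median of -0.93 (without sham replicate 2) to -0.20 (without BPH replicate 1) in BPH against sham. The ranges were 3 to 396 genes, 0 members and 0 to 1 other striated muscle genes in BPH+ghrelin against BPH, and 226 to 1927, 3 to 10 and 1 to 4 in BPH+ghrelin against sham. With normexp, which compresses dim signals, the member level was 0.20 on sham replicate 1 and -0.18 on BPH replicate 1, and the median range was 0.10 in BPH and 0.16 in BPH+ghrelin. Myh7 turned to -0.11 in BPH against sham with slide as a fixed term, and Abra ranged from -0.95 to 0.68 in BPH+ghrelin against sham when 1 array was left out, 0.68 being without sham replicate 2. Members near background, such as Myh7, Tnni1, Trdn and Myl1, are limited by signal.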
